A study of Arabidopsis thaliana with 7 samples.

Results

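Seedlings of 2 natural Arabidopsis thaliana strains were compared, C24-LUC on 1 Affymetrix ATH1 array and Col-LUC on 4. The arrays were chosen by their titles, 5 of the 7 in the series, and the remaining 2 hold the sta1 mutant. Both strains were titled wild type and untreated, and both carry the suffix LUC, which the labels do not explain. Seeds of all 5 were sown on MS agar with 3% sucrose, and seedlings were kept at 22 °C under 16 h of light and 8 h of dark for 2 weeks. The sta1 arrays enter only the estimate of the spread between arrays and a side-by-side reading of levels. The labels do not give the strain that carries sta1, and their growth text for these arrays names ice1 seeds and a treatment, so the titles were followed. A probe set was included when its signal reached 100 on at least 1 of the 5 wild-type arrays, which 16087 of the 22746 plant probe sets did (70.7%). Of these, 8791 are assigned to a single gene, and named results are restricted to them.

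Natural strains of Arabidopsis differ in sequence, in gene content and in transcript levels. Plant immune receptors of the NBS-LRR class, which recognise pathogen molecules inside the cell, are known for differing between strains in sequence and copy number. Many enzymes of defence and secondary metabolism belong to tandem families whose members also differ between strains. ATH1 probes were designed on the Col genome. A C24 sequence that binds a Col probe poorly and a lower C24 transcript level therefore cannot be told apart for any gene that is low on the C24-LUC array.

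The 5 wild-type arrays had median signals between 207.8 and 215.7, and 63.9 to 65% of their plant probe sets reached 100. Correlations of log2 signal lay between 0.922 and 0.970 for pairs of Col-LUC arrays and between 0.912 and 0.936 for C24-LUC with each Col-LUC array. Pairs of Col-LUC arrays differed at least 2-fold at 480 to 1610 probe sets, and C24-LUC differed from a Col-LUC array at 1202 to 1777. These ranges overlap, and the strain pair with the fewest differences was that with Col-LUC 1. Per the file headers C24-LUC shares its chip lot with none of the 5 other arrays whose lot is given, and no lot is given for Col-LUC 4. Strain, array and lot therefore cannot be told apart. The leaf marker RCA, Rubisco activase, read 15226.1 on C24-LUC within a Col-LUC range of 14781.5 to 15664.3. The root marker PYK10, a beta-glucosidase, read 13028.0 within 9850.7 to 13975.6, so leaf and root transcripts were present in both strains. In RNA from whole seedlings, fewer cells of a type and less RNA per cell cannot be told apart. Among the control probe sets, the 3′ actin set read 1024.6 on C24-LUC against 7531.3 to 7971.0 on Col-LUC. The 5′ actin set read 4950.0, within 4526.3 to 5699.6, which gives a 3′ to 5′ ratio of 0.207 on C24-LUC and of 1.35 to 1.68 on Col-LUC. The same ratio for GAPDH was 1.02 on C24-LUC and 0.979 to 1.15 on Col-LUC, within range, while that for ubiquitin was 1.18 against 1.58 to 1.65.

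**Figure D1:**
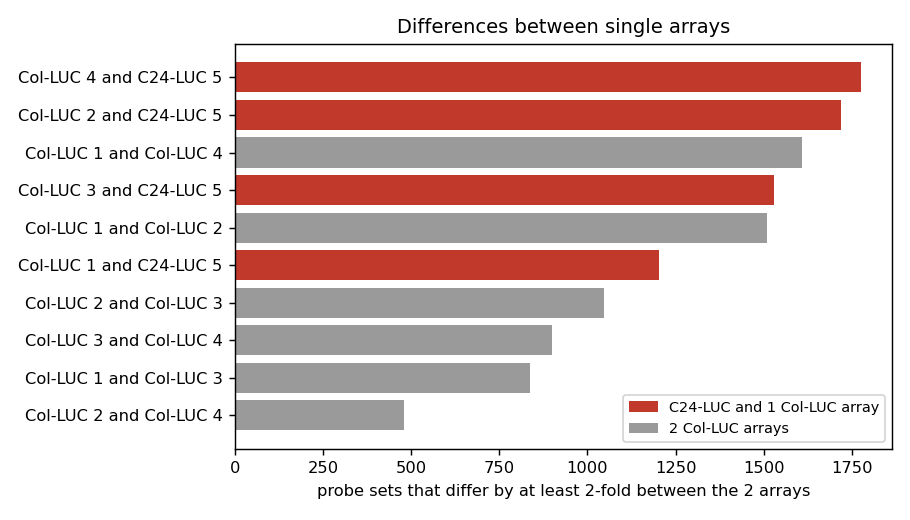
Each bar is a pair of wild-type arrays, and its length is the number of tested probe sets that differ at least 2-fold between them. The 4 pairs with C24-LUC reach 1202 to 1777 probe sets, overlapping the 480 to 1610 of Col-LUC pairs.

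The widest gaps between the strains included AT4G29200, under the floor in Col-LUC, AT4G15390, under it in C24-LUC, and THI2.2, which was measured in both. On log2 signal with a floor of 50, C24-LUC lay above all 4 Col-LUC arrays at 4068 probe sets (25.3%) and below all 4 at 3309 (20.6%). The median difference over all probe sets was 0.04 and the median absolute difference 0.25 on the log2 scale, so most of these lay just outside the range. At least 2-fold beyond the nearest Col-LUC array were 158 probe sets above (0.982%) and 244 below (1.52%). A gap of at least 4-fold was reached by 29 above and 46 below, and of at least 16-fold by 4 above and 4 below. limma called 59 probe sets higher (0.367%) and 184 lower (1.14%) in C24-LUC at an adjusted p under 0.05. Of the calls, 54 higher and 156 lower were also at least 2-fold beyond the range. These calls borrow their spread from the Col-LUC and sta1 arrays, since the single C24-LUC array has none of its own, and an exact permutation test of 1 array against 4 cannot go below p = 0.2. The labels do not say whether the arrays came from separate cultures, so the spread may be technical, and with so few arrays all values are imprecise. Fitted on the 5 wild-type arrays alone, or without either sta1 array, limma called 16 higher and 45 lower, and without Col-LUC 1 it called 161 higher and 259 lower. Of 50 called genes followed across settings, 24 were also called on the 5 wild-type arrays alone, and for the others that are described one by one that adjusted p is given beside the value. Without Col-LUC 1, the probe sets at least 2-fold above the range numbered 355.

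**Figure D2:**
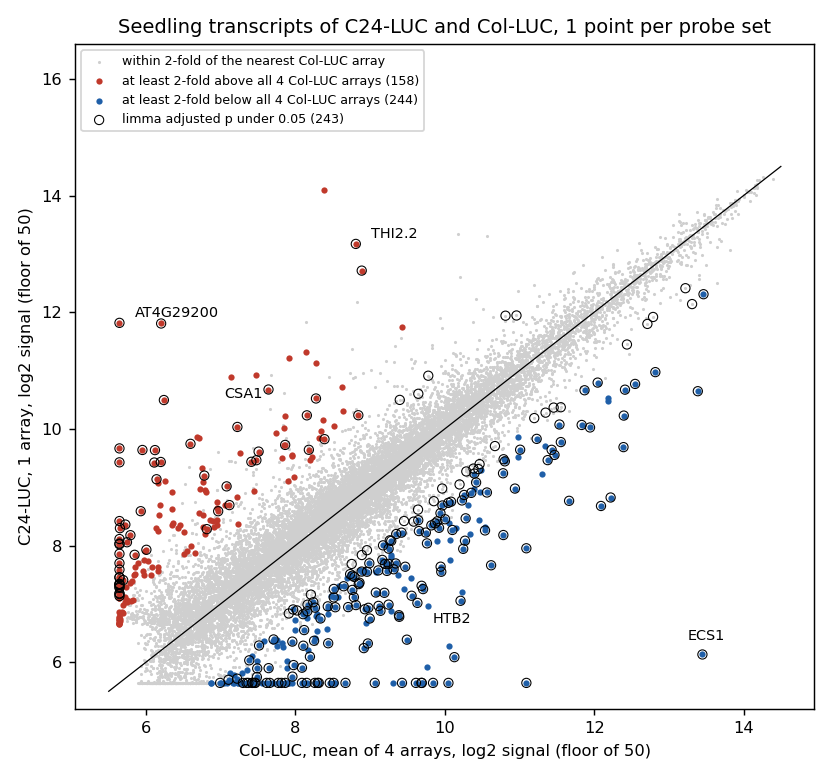
Each point is a tested probe set, with the mean log2 signal of the 4 Col-LUC arrays on the horizontal axis and that of the C24-LUC array on the vertical axis, both with a floor of 50, and circles mark limma calls. Coloured points are the 158 probe sets at least 2-fold above and the 244 at least 2-fold below all Col-LUC arrays.

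The gene with the largest difference towards C24-LUC was AT4G29200, with signals of 16.9, 32.6, 32.8 and 35.8 on the Col-LUC arrays and 3610.5 on C24-LUC. All 4 Col-LUC values lay under the floor, so C24-LUC was at least 72.2-fold higher, a log2 difference of at least 6.17. Raised to the floor, the 4 Col-LUC values show no spread of their own. The probe set was included only through its signal on C24-LUC. THI2.2, a thionin of the small cysteine-rich antimicrobial peptides, was already measured in Col-LUC at 331.1, 600.1, 462.9 and 439.6 and reached 9226.8 in C24-LUC. Its 20.6-fold difference (4.36 ± 0.34 SE, limma adjusted p = 0.00312) made it the only gene with a symbol among the 15 largest differences towards C24-LUC that limma called. The 15 were picked as at least 2-fold beyond all 4 Col-LUC arrays, so that they lie clear of Col-LUC is no separate result. AT1G61500 read 36.3, 110.1, 55.0 and 107.4 in Col-LUC and 1442.7 in C24-LUC, a 19.1-fold difference (limma adjusted p = 0.0643 on the 5 wild-type arrays alone). AT2G29170 and AT3G48640 were under the floor on every Col-LUC array and read 811.8 and 688.0 on C24-LUC, at least 16.2-fold and at least 13.8-fold higher. AT5G15360 was at 44.3 to 75.7 in Col-LUC and 796.8 in C24-LUC. The other 9 of the 15 were 5.24-fold or more higher, and included the annotated pseudogenes AT4G22450 at 795.7 and AT5G34920 at 342.3 in C24-LUC. Both pseudogenes were read by probe sets whose suffix marks sequences shared by more than 1 transcript. limma called AT4G22450 at an adjusted p of 0.0215, but gave 0.0632 on the 5 wild-type arrays alone, 0.0586 without Col-LUC 2 and 0.0569 without Col-LUC 4.

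The gene with the largest difference in the other direction was ECS1, which encodes a cell wall protein. It was among the brighter transcripts of Col-LUC, at 14209.5, 8338.8, 12594.8 and 10502.2, and read 70.1 on C24-LUC. The 159.6-fold lower signal (-7.32 ± 0.28 SE, limma adjusted p = 0.000225) exceeded every other difference in the comparison. AT4G15390 read 2797.0, 2579.6, 2014.0 and 1565.0 in Col-LUC and 34.4 in C24-LUC, at least 43.7-fold lower. AT4G20480 read 940.6 to 1183.9 in Col-LUC and 10 in C24-LUC, and AT1G23960 read 810.6 to 984.6 and 20.4. Both were thus clearly expressed in every Col-LUC array and under the floor in C24-LUC. AT5G45500 had 749.3 to 921.7 in Col-LUC against 6.5 in C24-LUC. AT4G19500 had 441.5 to 588.3 against 8.3. The gene scpl42, a serine carboxypeptidase-like protein, had 725.2, 771.7, 953.1 and 869.0 against 44.9, at least 16.5-fold lower (-4.04 ± 0.21 SE, limma adjusted p = 0.000473). AT2G33220 was still measured in C24-LUC at 202.4, against 1490.2 to 1609.4 in Col-LUC, and AGL87, a MADS-box transcription factor, was at 75.6 against 337.3 to 582.4 (limma adjusted p = 0.0158, and 0.0678 on the 5 wild-type arrays alone). For all 30 genes with the largest differences among limma calls, 15 in each direction, both sta1 arrays lay nearer to the Col-LUC mean than to C24-LUC. The 30 were chosen for a C24-LUC value far from Col-LUC, in a fit that used the sta1 arrays. Such a count was therefore likely from the choice alone.

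In both directions, part of the calls rested on signals under the floor in one strain. Of the 184 probe sets that limma called lower, 29 were under the floor on C24-LUC, and of the 59 called higher, 20 were under it on all 4 Col-LUC arrays. Among 2721 probe sets with at least 1000 on all 4 Col-LUC arrays, 47 were at least 2-fold below them on C24-LUC and 11 of these at least 4-fold. Among 3481 with at least 1000 on C24-LUC, 24 were at least 2-fold above all Col-LUC arrays and 10 of these at least 4-fold. Probe sets that reached 100 only on C24-LUC numbered 243, and 30 of them were called higher. Under 100 on C24-LUC and at least 100 on a Col-LUC array were 1308, of which 51 were called lower. Over all probe sets 0.367% were called higher and 1.14% lower, and 0.982% were at least 2-fold above and 1.52% at least 2-fold below. Each of these sets was chosen by signals that favour the direction counted in it, so its counts are no separate result. The sets are also not mirror images, since they set the 4 Col-LUC arrays against 1 C24-LUC array.

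Of 30 genes with a symbol that lay at least 2-fold beyond the Col-LUC range, 11 were higher in C24-LUC and 19 lower. That is 2.41% of the 1243 tested probe sets that have a gene symbol, close to the 2.72% of the 7548 named only by locus. limma called 2 of the 11 higher genes and 16 of the 19 lower ones. The lists that follow give genes by function, each with its counts beside those of all 8690 genes measured. Of these 8690, 2195 lay above the Col-LUC range and 1887 below it, 47% in all. At least 2-fold beyond it were 2.67%, and the median difference was 0.03.

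**Figure D3:**
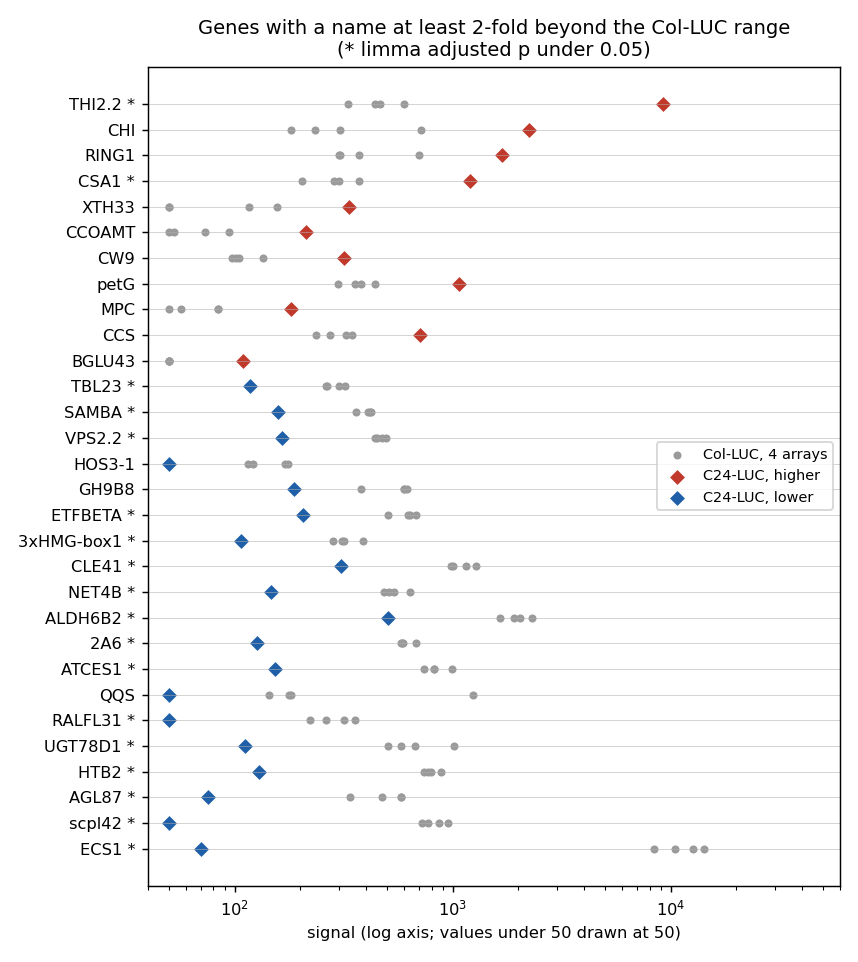
Signals on a log axis of the 30 genes with a symbol at least 2-fold beyond the Col-LUC range, with 1 point for each of the 4 Col-LUC arrays, a diamond for C24-LUC, values under 50 drawn at 50 and an asterisk for limma calls. The genes run from THI2.2, 20.6-fold higher, to ECS1, 159.6-fold lower.

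Immune receptors and genes of defence hormone signalling had C24-LUC above the Col-LUC range for 6 of 12 measured members and below it for none, with a median difference of 0.86. The share outside the range, 50%, was near the 47% of all genes, while all 6 lay on the same side. All 12 members have a symbol, so these counts say nothing of immune receptors named only by locus. Of the 12, 3 were at least 2-fold above the range, and limma called 1 of them, CSA1, a TIR-NBS-LRR resistance protein named after a shade-avoidance mutant. CSA1 read 286.0, 301.9, 372.2 and 204.4 in Col-LUC and 1202.6 in C24-LUC, a 4.22-fold difference (2.08 ± 0.31 SE, limma adjusted p = 0.0307). CSA1 was picked as called and outside the Col-LUC range, so that it lies clear of Col-LUC is no separate result. For it, limma gave an adjusted p of 0.107 on the 5 wild-type arrays alone and of 0.0752 without Col-LUC 2. RING1, an E3 ubiquitin ligase, read 701.1, 304.3, 302.5 and 373.2 against 1684.2, with Col-LUC 1 the highest of its group (2.1 ± 0.46 SE, limma adjusted p = 0.102, and 0.0114 without Col-LUC 1). CW9, another NBS-LRR protein, had 97.6, 101.5, 104.4 and 135.1 against 317.4 and just missed the threshold (1.55 ± 0.27 SE, limma adjusted p = 0.0523). LOV1, the CC-NBS-LRR protein behind sensitivity to the fungal toxin victorin, had 45.4 to 118.1 against 214.5. The list was not uniform: the receptor kinase FERONIA, listed as FER, read 1792.4 within 1603.7 to 2257.2. EIN3, the transcription factor of ethylene responses, read 1288.9 within 1112.6 to 1447.6.

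Antimicrobial and pathogenesis-related proteins lay above the range for 5 of 14 members and below it for none, with a median of 0.30. After THI2.2, the largest gap was that of CHI, a putative chitinase, at 716.3, 233.5, 180.9 and 303.8 in Col-LUC and 2237.2 in C24-LUC (2.85 ± 0.68 SE, limma adjusted p = 0.129, and 0.0155 without Col-LUC 1). The plant defensins show how wide the Col-LUC range can be. PDF1.2b read 11709.8, 130.6, 4976.9 and 681.6 on the Col-LUC arrays, and its 10193.2 on C24-LUC lay inside that range. PDF1.2, its close relative, read 7653.2, 48.4, 3214.0 and 178.4 against 3018.9. Col-LUC 1 and Col-LUC 3 were high and Col-LUC 2 and Col-LUC 4 low for both defensins. WRKY, NAC and MYB transcription factors had 4 of 9 above the range and 1 below, none 2-fold beyond it. WRKY53, a regulator of leaf senescence, read 178.3, 43.1, 37.8 and 45.8 against 162.7, so that C24-LUC and Col-LUC 1 were alike and the other 3 lower. RL2, at locus AT5G45160, read 283.4 to 370.8 against 463.1. It is counted among the 4 by its symbol alone, which a MYB-related gene at another locus shares.

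Signalling peptides lay below the Col-LUC range for 7 of 11 members and above it for none, with a median of -0.75. The 7 make up 63.6% of the list, while of all 8690 genes 1887 lay below the range. limma called 2 lower, and both were at least 2-fold below the range. CLE41, the secreted peptide that keeps vascular stem cells dividing, read 1282.2, 980.7, 1005.6 and 1153.9 in Col-LUC and 307.9 in C24-LUC (-1.84 ± 0.19 SE, limma adjusted p = 0.00932, and 0.0555 on the 5 wild-type arrays alone). CLE44, which encodes the same mature peptide, read 175.3 to 228.0 against 119.4, also below the range but not called. RALFL31, of the RALF family of growth-regulating peptides, read 316.8, 262.2, 355.6 and 220.7 against 39.8, at least 5.68-fold lower (-2.51 ± 0.29 SE, limma adjusted p = 0.0142, and 0.0617 on the 5 wild-type arrays alone). Among its relatives, RALFL34 read 1945.4 to 3490.0 against 1729.2, and RALFL33 read 716.4 within 572.8 to 830.7. The family was therefore mixed, with the lower values not shared by all of its members.

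Cell wall proteins and enzymes, the longest nuclear list, had 13 of 52 above the range and 9 below, with a median of 0.07. Apart from ECS1, limma called TBL23 lower, at 261.3, 300.2, 321.1 and 265.1 in Col-LUC and 117.2 in C24-LUC (-1.29 ± 0.20 SE, limma adjusted p = 0.0345). The call was lost without any one of Col-LUC 2, Col-LUC 3, Col-LUC 4 and the sta1 arrays, at limma adjusted p of 0.0756 to 0.114. TBL23 belongs to the Trichome Birefringence-like family, many members of which acetylate wall polysaccharides. XTH33, a xyloglucan endotransglycosylase, read 116.9, 45.0, 156.0 and 48.7 against 334.8 and was not called. GH9B8, a glycosyl hydrolase of the endoglucanase family, was more than 2-fold below the range without a call (-1.52 ± 0.32 SE, limma adjusted p = 0.0856). Expansins, which loosen walls, had no call. EXPB3 read 1213.6 within 1209.7 to 2943.1 and EXPA15 read 668.6 against 675.7 to 1186.6, while EXPB2 read 103.0 within 69.6 to 103.4 and EXPA18 read 262.4 within 156.0 to 397.4.

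Serine carboxypeptidase-like proteins and subtilases, proteases or acyltransferases of the secretory pathway, had 9 of 21 below the range and 5 above, with a median of -0.27. Only scpl42 was called. SCPL27 read 225.5 to 371.6 in Col-LUC and 116.5 in C24-LUC, and scpl50 read 287.8 to 458.6 and 187.6. On the other side, SBT3.3, a subtilase linked to immune priming, read 23 to 67.3 against 104.3. These 3 genes lay outside the range without passing the test.

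Histones and chromatin proteins had 7 of 13 below the range and none above, with a median of -0.28, and 2 of the 7 were called by limma. HTB2, a histone H2B, read 792.3, 738.0, 767.8 and 886.0 in Col-LUC and 129.4 in C24-LUC, 6.14-fold lower (-2.62 ± 0.17 SE, limma adjusted p = 0.00146). Other H2B genes differed less: HTB1 read 1068.5 within 779.3 to 1134.1, HTB11 read 1007.2 within 895.7 to 1247.7, and HTB4 read 1184.2 against 1604.7 to 2259.3. The 3xHMG-box1 gene, for a protein that binds chromosomes during cell division, read 282.8 to 388.2 against 107.5 (-1.59 ± 0.22 SE, limma adjusted p = 0.025). That call was lost without Col-LUC 2 (0.0659), without Col-LUC 4 (0.063) and on the 5 wild-type arrays alone (0.0929), all limma adjusted p. Its paralogue 3xHMG-box2 read 869.6 to 1275.9 against 639.0, below the range and not called.

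Mitochondrial genes had 4 of 10 below the range and none above, with a median of -0.61 and no call. The largest differences were in subunits of respiratory complex I and in a cytochrome c maturation gene. nad4 read 745.7, 853.3, 908.2 and 1011.9 in Col-LUC and 423.6 in C24-LUC (-1.05 ± 0.23 SE, limma adjusted p = 0.0987). nad9 read 112.5 to 160.2 against 69.1, and ccb452 read 308.0 to 475.0 against 205.3. The lower values were not shared by all subunits of complex I: nad1 read 127.3 within 111.7 to 168.7 at its brightest probe set. cox1, a subunit of complex IV, read 340.6 within 251.4 to 356.4.

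Plastid-encoded genes had 25 of 69 below the range and 9 above, with a median of -0.07 and no call. Members on both sides were subunits of the same complexes. petG, a small subunit of the cytochrome b6f complex, read 441.4, 381.6, 297.6 and 355.2 in Col-LUC and 1065.8 in C24-LUC (1.54 ± 0.41 SE, limma adjusted p = 0.172). petA, cytochrome f of that complex, read 8861.6 to 10955.5 against 5679.3 (-0.82 ± 0.15 SE, limma adjusted p = 0.0621). Photosystem II showed the same split. psbK and psbI, neighbours in the plastid genome, read 8588.7 against 4266.7 to 5833.4 and 5789.4 against 3004.9 to 3885.4. psbF and psbL, which share a transcript, read 6401.6 against 9275.3 to 11766.1 and 1488.2 against 2000.1 to 2906.8. rpoB, a subunit of the plastid RNA polymerase, read 1706.6 against 483.3 to 873.4, while rpl20, a ribosomal protein, read 1268.2 against 2219.0 to 3843.2. The reaction centre gene psbA lay within the range at 5863.4.

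Nuclear genes of photosynthesis had 1 of 15 above the range and 2 below, a median of -0.01 and no call. LHCB4.1, an antenna protein of photosystem II, read 18034.7 within 15260.8 to 20155.4, and phosphoribulokinase, listed as PRK, read 12249.0 within 10440.1 to 12633.9. LHCB4.2 lay just below its range at 9765.7 against 10247.9 to 14953.1. LHCB4.3, the third isoform, read 3702.5, 461.1, 745.8 and 1167.5 in Col-LUC and 2537.2 in C24-LUC, with Col-LUC 1 above C24-LUC. Core housekeeping genes had 3 of 10 below the range, 1 above and a median of -0.20. The alpha-tubulin TUA6 read 3816.3 against 4928.9 to 8048.9, and the glycolytic GAPC2 read 13992.0 within 13046.0 to 15320.5.

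Flavonoid and phenylpropanoid genes had 5 of 14 above the range and 2 below, with a median of 0.35, and the only call was in the other direction from the median. UGT78D1, which adds rhamnose to flavonols, read 1019.3, 581.2, 673.1 and 503.1 in Col-LUC and 111.8 in C24-LUC, 5.99-fold lower (-2.58 ± 0.37 SE, limma adjusted p = 0.0279). The limma adjusted p was 0.064 without Col-LUC 2, 0.0856 without Col-LUC 3 and 0.0959 on the 5 wild-type arrays alone. UGT78D2, the glucosyltransferase that acts on the same flavonols, read 967.9 within 484.9 to 1310.3. Dihydroflavonol reductase or DFR, an enzyme of anthocyanin synthesis, also lay within its range, at 496.1 within 141.1 to 1762.3. CCOAMT, a methyltransferase of caffeoyl-CoA, read 48.5 to 93.9 against 212.6 and was not called. Glycosyltransferases and glutathione transferases, a list that holds UGT78D1 too, had 10 of 44 above and 7 below the range, with a median of 0.15. UGT85A2 read 582.2 to 1004.0 against 297.3, and GSTU26 read 285.4 to 588.6 against 1006.5, both uncalled.

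Genes of glucosinolate metabolism and beta-glucosidases had 4 of 16 above the range and 6 below, with a median of 0.00 and no call. BGLU43 was under the floor on all 4 Col-LUC arrays and read 108.7 in C24-LUC, at least 2.17-fold higher (limma adjusted p = 0.118). BGLU19 read 289.2, above 58.6, 250.6, 38.3 and 62.3, where Col-LUC 2 was near C24-LUC. BCAT4, which starts the chain elongation of methionine for glucosinolates, read 5901.4 within 4249.0 to 6242.1. Cytochrome P450 enzymes had 3 of 13 above and none below, with a median of 0.18, and no member 2-fold beyond the range. CYP71B24, one of these, read 337.0 against 116.1 to 333.9, barely above Col-LUC 1.

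Starch and sugar metabolism had 3 of 7 above and 4 below, so that every member was outside the Col-LUC range, and none was called. QQS, an orphan gene that affects starch content, read 143.9, 176.8, 1242.8 and 181.0 in Col-LUC and 29.2 in C24-LUC. Its Col-LUC 3 value stood far above the other 3, and its standard error was correspondingly wide (-2.46 ± 1.11 SE, limma adjusted p = 0.414). Among subunits of ADP-glucose pyrophosphorylase, the first committed step of starch synthesis, APL3 was lower at 145.1 against 231.1 to 865.7. APL4 was higher at 576.4 against 125.8 to 378.4. ENOC, an enolase, read 1346.1 against 770.4 to 869.8 (0.68 ± 0.16 SE, limma adjusted p = 0.125).

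MADS-box, clock and flowering genes had 5 of 12 above the range and 1 below, with a median of 0.11, and AGL87 was the call. SMZ, an AP2-type repressor of flowering, read 179.2, 147.6, 152.5 and 127.5 in Col-LUC and 297.9 in C24-LUC (0.98 ± 0.23 SE, limma adjusted p = 0.122). SNZ, its close relative with the same role, read 83.5 to 265.3 against 328.5. GIGANTEA, a clock output gene listed as GI, read 603.6 within 341.2 to 1636.4. Cold, drought and abscisic acid genes had none of 13 above and 4 below, with a median of -0.19 and no call. COR15A, a chloroplast cryoprotectant, read 443.4, 4117.5, 411.3 and 2250.4 against 728.7, so Col-LUC itself spanned the C24-LUC value widely. The drought-responsive DI21 read 949.3 to 1381.1 against 716.7.

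F-box, RING and other ubiquitin proteins had 12 of 39 above and 10 below, with a median of 0.02 and no call. UBC37, a ubiquitin-conjugating enzyme, read 111.8 to 158.8 in Col-LUC and 57.6 in C24-LUC. Transporters had 4 of 25 above and 4 below, a median of 0.00 and no call. The organic cation transporter OCT4 read 131.0 to 160.5 against 302.8 (1.02 ± 0.21 SE, limma adjusted p = 0.0787), and the glutamate receptor-like GLR2.7 read 71.7 to 289.1 against 30.5. Peroxidases and redox enzymes had 5 of 18 above and 3 below, with a median of 0.16, led by the glutaredoxin GRX480 at 212.9 against 66.0 to 119.4. Iron, phosphate and sulphur genes had 2 of 4 above and none below. The 4 include PS2 at locus AT2G29900, within its range, which was counted by a symbol that a phosphate gene at another locus shares. BHLH101, a regulator of iron uptake, read 169.3 against 39.5 to 155.1. Heat shock proteins and chaperones had 1 of 4 above and none below, Cpn60beta4, at 883.9 against 650.5 to 853.4. In these 5 lists no member lay 2-fold beyond the range.

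**Figure D4:**
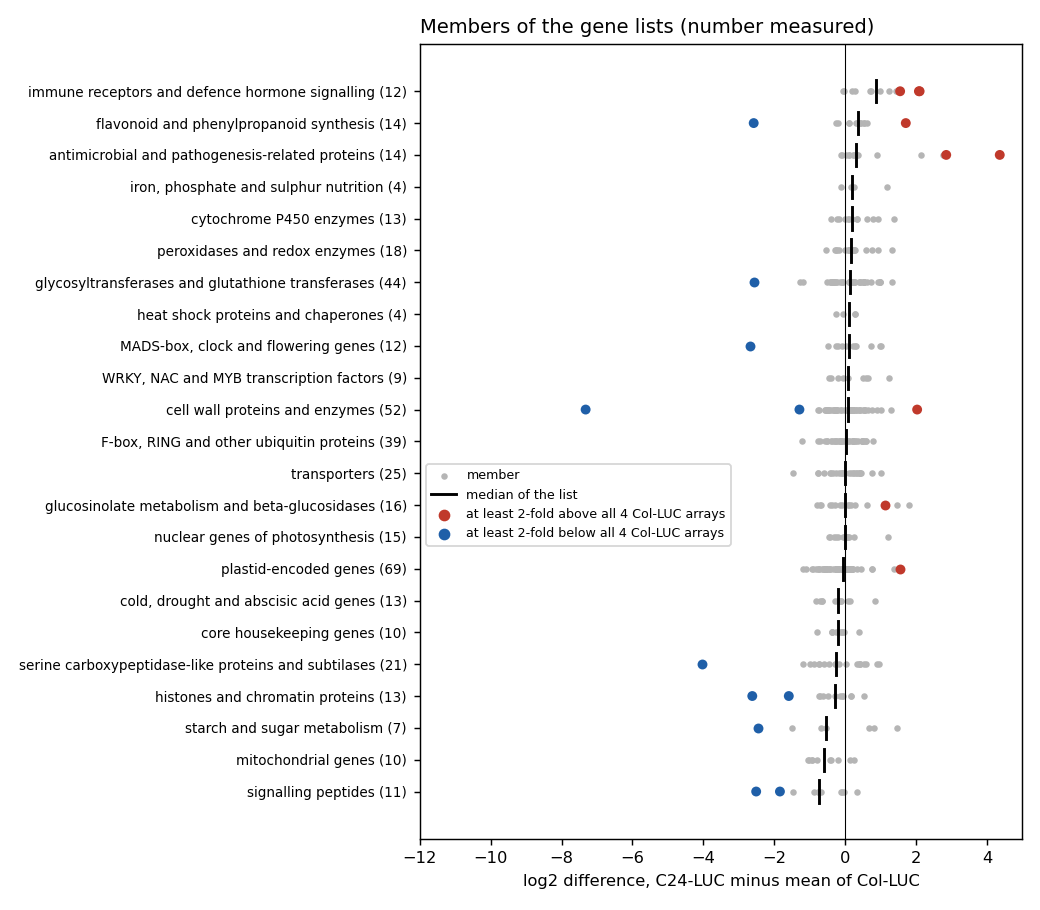
Each point is a gene of a list, placed by its log2 difference, C24-LUC minus the mean of 4 Col-LUC arrays, and black bars mark list medians. Medians run from -0.75 for signalling peptides to 0.86 for immune receptors and defence hormone signalling, and coloured points are at least 2-fold beyond the Col-LUC range.

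Several called genes with a symbol belong to no list above. ATCES1, a ceramidase of sphingolipid breakdown, read 737.4 to 989.2 in Col-LUC and 152.5 in C24-LUC, 5.49-fold lower (limma adjusted p = 0.0043). ALDH6B2, a dehydrogenase of valine breakdown, read 1920.4, 2321.8, 2025.3 and 1646.8 against 503.6 (limma adjusted p = 0.00896, and 0.0519 on the 5 wild-type arrays alone). ETFBETA, the electron transfer flavoprotein that accepts electrons from such breakdown in mitochondria, read 505.8 to 679.6 against 205.8 (limma adjusted p = 0.0203, and 0.0885 on the 5 wild-type arrays alone). These 3 genes were picked as at least 2-fold beyond all 4 Col-LUC arrays, so that they lie clear of Col-LUC is no separate result. NET4B, of the actin-binding Networked family, was 3.69-fold lower at 146.4 (limma adjusted p = 0.00908, and 0.0519 on the 5 wild-type arrays alone). VPS2.2, an ESCRT-III subunit that sorts membrane cargo, read 440.4 to 496.0 against 164.4 (limma adjusted p = 0.0142, and 0.0617 on the 5 wild-type arrays alone). SAMBA, a regulator of the anaphase-promoting complex, read 360.4 to 420.3 against 157.7 (limma adjusted p = 0.032, and 0.0885 on the 5 wild-type arrays alone). Of the uncalled genes, CCS, the copper chaperone of superoxide dismutase, read 347.1, 325.2, 237.4 and 274.6 against 711.4 (1.28 ± 0.28 SE, limma adjusted p = 0.0971). MPC read 48.3 to 83.8 against 181.0, and HOS3-1 read 114.7 to 175.7 against 41.6, also uncalled. ETFBETA lost its call without Col-LUC 3 or Col-LUC 4 too, and SAMBA without any one of Col-LUC 2, Col-LUC 3 and Col-LUC 4, at limma adjusted p of 0.0574 to 0.093.

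Of 231 genes at least 2-fold beyond the range that could be placed in the gene order of the reference table, 20 stood next to another such gene, in 10 pairs. In 8 pairs both genes differed in the same direction, 5 lower in C24-LUC and 3 higher, and in 2 they differed in opposite directions. Of all 8690 genes, 88 lay at least 2-fold above the range and 144 at least 2-fold below. How many pairs, or pairs of like direction, would arise by chance was not tested. AT5G45500 and AT5G45510 on chromosome 5 were the pair with the largest mean difference, the second reading 1147.4 to 2501.4 in Col-LUC and 289.9 in C24-LUC. AT4G19500 and AT4G19510 on chromosome 4 were both under the floor in C24-LUC, the second at 11.7 against 135.4 to 211.1. Next to AT4G02540, AT4G02530 read 3248.0 to 4201.5 against 1620.2, still a bright signal in C24-LUC. AT1G35340 and AT1G35350 on chromosome 1 read 424.9 against 951.7 to 1113.2 and 68.3 against 232.0 to 399.3. Among pairs that were higher, AT4G00960 was under the floor in all Col-LUC arrays and read 140.3 in C24-LUC, next to AT4G00955 at 303.5 against 26.4 to 139.0. The pair with opposite directions on chromosome 1 was AT1G03400, at 736.5 against 250.3 to 349.3, and 2A6, at 126.8 against 578.5 to 680.6. 3xHMG-box1 and TBL23, described above, were a pair too. Of the 6 pairs given here by locus, AT5G45510, AT4G19510, AT4G02530, AT1G35340, AT1G35350 and AT4G00960 were called by limma but not on the 5 wild-type arrays alone, at adjusted p of 0.082 to 0.137. Each of these 6 also lost the call without 1 or more of Col-LUC 2, Col-LUC 3 and Col-LUC 4, at limma adjusted p of 0.0537 to 0.119.

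**Figure D5:**
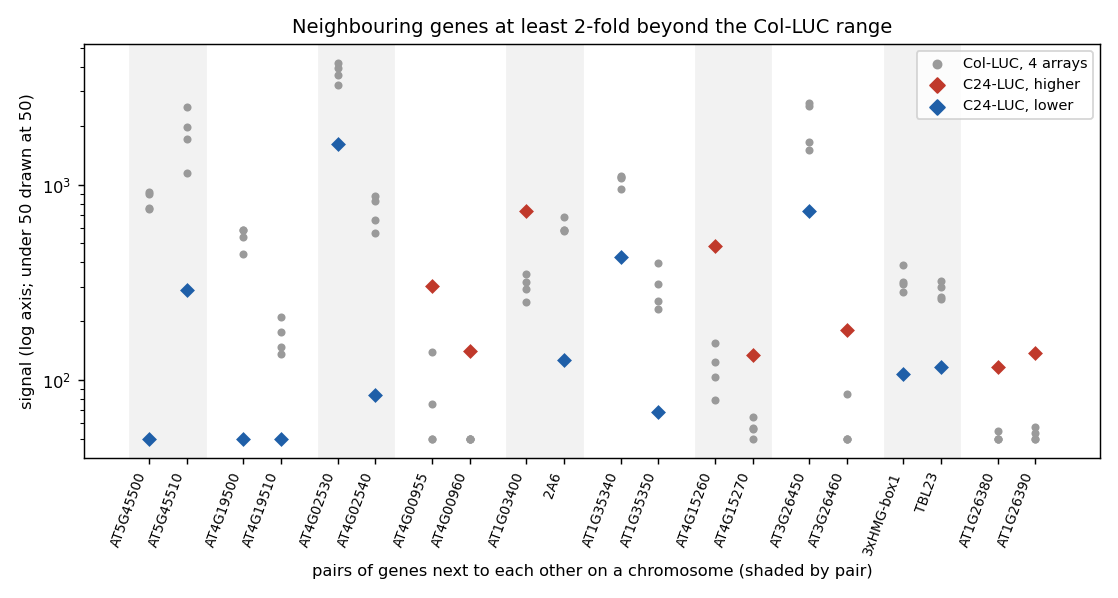
Signals on a log axis of the 20 genes in 10 neighbouring pairs, with 1 point for each Col-LUC array and a diamond for C24-LUC, values under 50 drawn at 50. In 8 of the 10 pairs both genes lie on the same side of their Col-LUC values.

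Where a gene had several probe sets, these did not always read the same difference. Of 96 genes with more than 1 tested probe set, 5 had a probe set at least 2-fold beyond the range, and for none of the 5 were all probe sets 2-fold beyond it in the same direction. 2A6 was the clearest case, with a log2 difference of -2.26 at one probe set and -0.24 at the other. AT5G22700 gave -1.85 and -0.88, and AT2G03390 gave 0.34 and -0.84. Of 55 measured genes annotated as pseudogenes, 4 lay at least 2-fold above and 9 at least 2-fold below the Col-LUC range (23.6%), against 83 and 132 of 8594 protein-coding genes (2.5%). By chromosome, the share of genes at least 2-fold beyond the range lay between 2.19 and 3.15%.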

How the data were processed

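RNA of whole seedlings was hybridised to 1-colour Affymetrix ATH1 arrays. The deposited values are signal intensities that the authors computed with MAS5, per the submitters' processing notes, and scaled to a target of 500, per the labels. Version and probe-level settings are not given in the sources used here. From these values, log2 of the signal was taken with a floor of 50, and probe sets with 100 on at least 1 of 5 wild-type arrays were kept. limma 3.58.1 in R 4.3.3 (lmFit, eBayes with an intensity trend, Benjamini-Hochberg) was fitted to all 7 arrays in 3 groups for the contrast C24-LUC minus Col-LUC. The lone C24-LUC array is thus assumed to vary like the other groups. The procedure was tested on simulated data.

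Of the plant probe sets, 13513 have 1 gene in the platform annotation, 503 several and 8730 none. Of those with 1 gene, 13436 matched the RefSeq gene table (TAIR10.1). The comparison and the gene lists were chosen with earlier results of these data known, and the lists were revised after values had been seen. Genes were named by rule: the 15 largest called differences in each direction, from each list at most 5 that limma called (where it called none, 3 by smallest p), 6 genes with several probe sets, and 6 groups of neighbours. All genes with a symbol at least 2-fold beyond the Col-LUC range, and other list members, were chosen after their values were seen. A gene with several probe sets enters a list by its brightest. No sequences are printed, and some genes are not reported here.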

Additional observations from a re-analysis of the deposited data

Results flagged for a closer look

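In 12 of 110 genes examined for the spread of their 4 Col-LUC arrays, 1 array stood apart from the other 3 by Dixon's test at the 95% level, where chance gives 5.5. Among genes that were higher in C24-LUC, the Col-LUC 3 array read 50.8 for AT2G15042 against 29.8 to 50.1 on the others, and Col-LUC 4 read 62.2 for AT1G68620 against 38.3 to 48.2. Both genes lay close to the floor of 50 in Col-LUC, with 2 of the 4 values of AT2G15042 and 3 of AT1G68620 under it. Their flags, counted among the 12, rest on values raised to that floor. The signals as printed would not set either array apart by this test. RL2 read 370.8 on Col-LUC 3 against 283.4 to 292.4. UBP20, a ubiquitin-specific protease, read 199.6 on Col-LUC 4 against 167.8 to 171.0. ENOC was low on Col-LUC 4, at 770.4 against 862.8 to 869.8, and TROL, which anchors a reductase to thylakoids, was low on Col-LUC 3, at 2849.7 against 3360.3 to 3410.9. For these 6 genes C24-LUC lay above all 4 arrays.

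Among genes that were lower in C24-LUC, AT2G33220 read 1490.2 on Col-LUC 3 against 1595.2 to 1609.4, and 2A6 read 680.6 on Col-LUC 3 against 578.5 to 588.9. QQS had the widest gap, at 1242.8 on Col-LUC 3 against 143.9 to 181.0. GH9B8 was low on Col-LUC 1, at 381.2 against 596.9 to 615.4. The remaining 2 genes had a Col-LUC array near the C24-LUC value. WRKY53 read 178.3 on Col-LUC 1 against 37.8 to 45.8 on the others, and BGLU19 read 250.6 on Col-LUC 2 against 38.3 to 62.3. Why these arrays stood apart was not tested.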

How the results depend on the processing

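The number of limma calls depended on the settings more than the direction of any gene did. Calls towards C24-LUC, 59 as reported, numbered 39 with a floor of 20, 195 with a floor of 100, 32 with a signal of at least 100 required on 2 of 7 arrays, 234 without a filter, 22 with chip lot as a random block and 16 on the 5 wild-type arrays alone. Leaving out 1 array gave 16 to 161, the highest without Col-LUC 1. Calls towards Col-LUC, 184 as reported, numbered 66 with the chip lot block and 45 on the 5 wild-type arrays alone, and 45 to 259 with 1 array left out. Without either sta1 array, the other adds no information on spread, so those counts equal the ones of the 5 arrays. Probe sets at least 2-fold above the range, 158 as reported, numbered 95 when 2 of 7 arrays had to reach 100, and 171 to 355 with 1 Col-LUC array left out. The cause of these shifts was not tested. Of 50 called genes, 22 were called under each of the 15 alternatives that gave a value, 8 higher and 14 lower, among them THI2.2, ECS1, HTB2, scpl42, ATCES1 and 2A6. Of the 8, 6 reached 100 only on C24-LUC and so had no value when 2 of 7 arrays had to reach it, which leaves them 14 alternatives. With the chip lot block, which takes Col-LUC 4, whose lot is not given, as a lot of its own, 32 of the 50 were called. No gene followed across settings reversed its direction. The median of signalling peptides lay between -0.94 and -0.15 and that of immune receptors and defence hormone signalling between 0.49 and 0.97. No paired analysis was possible because the C24-LUC array carries number 5, which no other array shares.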

Other observations

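At 197 probe sets, C24-LUC lay at least 2-fold above Col-LUC 2, 3 and 4 but less than 2-fold above Col-LUC 1 or below it. Among them were 13 with a gene symbol. STZ, a zinc finger repressor of stress responses, read 812.6 in C24-LUC and 564.8 on Col-LUC 1, against 113.1, 135.9 and 100.7 on Col-LUC 2, 3 and 4. CYP71B23 read 638.0 and 1023.6 against 143.2, 208.8 and 118.1. ATPMEPCRB, a pectin methylesterase, read 519.1 and 889.2 against 73.7, 220.5 and 137.7, and UGT87A2, a glycosyltransferase, read 968.8 and 1202.7 against 311.9, 410.3 and 383.7. ICL, isocitrate lyase of the glyoxylate cycle, read 102.8 and 160.2 against 30.6, 7.6 and 50.5. This grouping was noticed in the data, and what sets Col-LUC 1 apart was not tested.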
